A study of Mus musculus with 6 samples.

Results

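The comparison described here set natural killer (NK) type cells sorted from skin against the same kind of cells sorted from spleen. Its members were the arrays whose titles name NK cells of skin or of spleen, 4 of the 6 arrays of the series, with 2 arrays per tissue, and the remaining 2 arrays held cells of the intestinal lamina propria. All groups came from 12-week-old male RAG-2-KO C57BL/6 mice, which lack mature T and B cells, and were sorted as CD45+ CD3- NKp46+ NK11+ cells (marker names spelled as in the labels). Nothing says that the 2 arrays of a tissue came from separate mice, so every p-value rests on a spread between these samples that may be technical. Replicate 1 of each tissue lay on slide 1 and replicate 2 on slide 2, so that each slide gave its own skin minus spleen difference.

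NKp46 is an activating receptor carried by NK cells and by some other innate lymphoid cells (ILCs), lymphocytes without rearranged antigen receptors. Mature NK cells kill target cells with perforin and granzymes, recognise them with families of activating and inhibitory receptors such as the Ly49 and NKG2 proteins, and circulate, leaving tissues along a gradient of sphingosine-1-phosphate. Lymphocytes that stay in a tissue carry CD69, which opposes that exit, and the skin of RAG-deficient mice is a site where such cells can be followed without T cells.

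The values are deposited probe signals, and differences are skin minus spleen on the normalized log2(signal + 16) scale, on which the change of a dim gene is understated. The error after ± is the standard error from limma, n = 2 arrays for each tissue. A gene was called where limma's p, with Benjamini-Hochberg adjustment over 13115 tested genes, was under 0.05, and only called genes are said to be higher, lower or changed. The skin arrays correlated with each other at 0.991 over genes, the spleen arrays at 0.9955, and skin with spleen arrays at 0.965 to 0.970; genes are not independent replicates. Detected probes numbered 15196 and 16477 on the skin arrays and 18266 and 18530 on the spleen arrays, and the unscaled mean signal was 43.7 and 53.4 against 137 and 131. The part that this gap plays in the counts below was not tested.

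In all, 3416 genes (26.0%) were called. Of these, 1822 (13.9% of the genes tested) were higher in skin and 1594 (12.2%) lower. Every called gene had the same sign on both slides. The call largely requires this, since both slide differences enter the called mean, so it is no separate result. At least 2-fold differences were fewer, with 193 genes (1.47%) higher and 156 (1.19%) lower. The split of higher against lower calls depended on the scaling. With the arrays set to a common median, 26.0% of the calls were higher in skin against 53.3% here, and with the deposited scaling alone 35.5% were, the median of all genes then lying at -0.20 and -0.13. With 1 spleen array left out, 464 or 479 genes were called, and with 1 skin array left out, 1008 or 2070. Of the 252 called genes that the naming rule picked, 73 stayed called under every alternative that could be run for them, of 16 in all, and those carry most of the text. Requiring detection on all 4 arrays left 212 of the 252 to be run. For any other called gene printed with its error, brackets name the left-out arrays and the settings (offset 4 or 64 in place of 16, no detection filter, other scaling, the mean of its probes) with which its call was lost, and the adjusted p of limma then found. None of the 252 changed sign under any alternative run for it. Where brackets follow the counts of a function list, they give the counts with the arrays set to a common median, higher before lower. They also give, in the same order, the range when 1 array was left out. Counts of marker lists carry no such brackets.

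**Figure D1:**
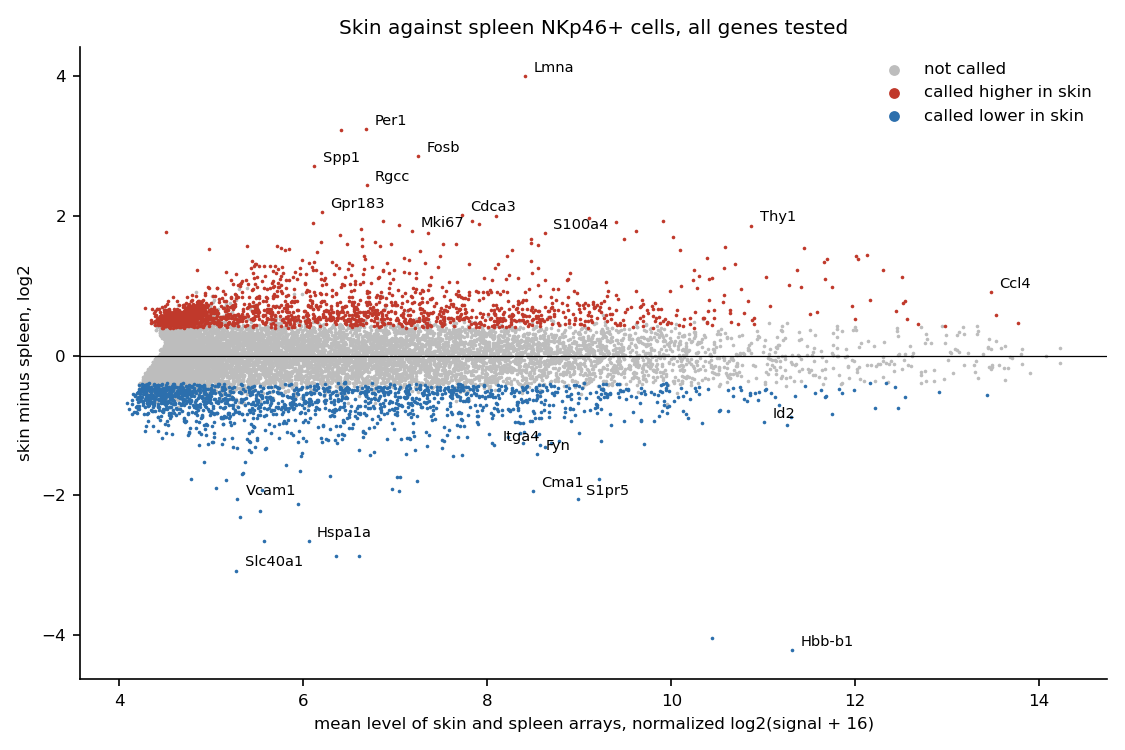
Each point is 1 of the 13115 genes tested, with the mean normalized log2(signal + 16) of the 4 skin and spleen arrays on the x axis and the skin minus spleen difference (log2) on the y axis. Red points are called higher in skin (1822), blue points called lower (1594), and Lmna at the top and Hbb-b1 at the bottom lie farthest from 0.

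The sorted cells carried the transcripts that define NK cells in both tissues. Klrb1c, the gene of the NK1.1 antigen, gave 2311 and 2071 in spleen and 2125 and 2003 in skin, with a difference of -0.05 ± 0.14 (adjusted p = 0.803). Ncr1, which encodes NKp46, gave 88.2 and 52.9 in spleen and 33.1 and 32.4 in skin. The groups did not overlap, but the difference of -0.53 ± 0.18 missed the threshold (adjusted p = 0.0555; called with median scaling or deposited scaling or the replicate block, adjusted p 0.005 to 0.0402). Eomes and Tbx21, the T-box factors of NK cells, were detected on all 4 arrays. Eomes differed by -0.34 ± 0.14 (adjusted p = 0.103; called with median scaling or deposited scaling or the mean of its probes, adjusted p 0.0138 to 0.0372; its 2 other probes gave -1.04 and -0.62) and Tbx21 by -0.27 ± 0.16 (adjusted p = 0.223; called with median scaling, adjusted p 0.0304). Prf1, the perforin gene, differed by -0.21 ± 0.13 (adjusted p = 0.247; called with median scaling, adjusted p 0.0407). Ptprc, the gene of CD45, was lower in skin by one probe (-0.86 ± 0.15; lost without spleen replicate 2 and with the mean of its probes, adjusted p 0.0746 to 0.188), while its 2 other probes gave -0.02 and 0.17. Of the genes of the CD3 chains, whose protein the sort excluded, Cd3e was detected on none of the 4 arrays and Cd3g on all of them, at 109 and 81.4 in spleen and 54.6 and 59.4 in skin (adjusted p = 0.351; called with median scaling, adjusted p 0.0424).

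Genes of cell division made up the list with the highest share of members on the skin side. In the list of 79 mitosis and spindle genes, 41 of the 62 members tested were higher in skin (66.1%), 1 was lower (1.61%) and 20 were not called, and the median difference was 0.79, beside 13.9% higher and 12.2% lower over all genes tested. Their median was 0.81 on slide 1 and 0.66 on slide 2. Mki67, the proliferation antigen Ki-67, had a signal of 63.8 and 90.5 in spleen and 232 and 262 in skin. Both skin values lay above both spleen values, and the difference was 1.78 ± 0.21 (adjusted p = 0.000848). Cdca3, a cell division cycle associated gene, gave 99.6 and 116 in spleen and 407 and 382 in skin (2.0 ± 0.14, adjusted p = 0.0001). Its replicates lay close together within each tissue. Spc24, a subunit of the kinetochore's NDC80 complex, gave 49.3 and 41.6 in spleen and 193 and 140.5 in skin (1.81 ± 0.19). Birc5, the survivin subunit of the chromosomal passenger complex, gave 54.9 and 60.2 in spleen and 193 and 154 in skin (1.63 ± 0.19), and its other probes agreed at 1.51 to 1.61. Cdca5, the sororin gene that holds sister chromatids together, was higher by 1.66 ± 0.16. The called members that were higher spanned 0.44 to 2.0, and the 20 that were not called spanned -0.41 to 0.50. The 1 member called lower was Racgap1, a regulator of cytokinesis, which was detected on neither skin array and whose signals of 6.68 and 6.01 against 1.61 and 1.89 lay near background (lost without any 1 of the 4 arrays and with deposited scaling, unscaled values, an offset of 64, no filter, every probe kept, a trended prior, adjusted p 0.0502 to 0.245).

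Many genes of DNA replication were higher in skin as well. Among the S phase genes, 25 of the 50 members tested were higher in skin (50%), 1 was lower (2%) and 24 were not called, and the median difference was 0.41. Uhrf1, which guides maintenance methylation at replication forks, gave 112 and 127 in spleen and 311 and 337 in skin and was higher by 1.60 ± 0.15 (adjusted p = 0.000379). Tk1, the thymidine kinase of S phase, gave 30.4 and 34.5 in spleen and 106 and 95.1 in skin (1.48 ± 0.14). In both genes the skin arrays lay about as far above the spleen arrays on slide 1 as on slide 2. Of the 6 subunits of the MCM helicase, which unwinds DNA ahead of the fork, 4 were called higher, and the 6 differences ran from 0.27 to 1.19. The highest was Mcm5, with 356 and 327 in spleen and 691 and 672 in skin (1.19 ± 0.13, adjusted p = 0.000591). Gins2, another part of the replicative helicase, was higher by 1.21 ± 0.13, and Chaf1a, which deposits histones behind the fork, by 1.18 ± 0.13. Rpa3 was the 1 member called lower (-0.48 ± 0.13; lost without any 1 of the 4 arrays and with an offset of 4, no filter, adjusted p 0.0556 to 0.181). With median scaling or an offset of 4, 16 members were called higher in place of 25, and without 1 array 8 to 17; the mitosis count was then 22 to 34 without 1 array.

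Because these genes were higher together, their promoters are shown as RefSeq gives them (GRCm38.p6, 250 bases before to 50 after the start). The cell cycle homology region (CHR, TTTGAA on either strand), an element bound by the complexes that switch mitotic genes, was held by 20 of the 33 called mitosis members with a promoter in the table (60.6%). The same letters were held by 20.2% of all 27025 genes with a promoter of that length and by 14.8% of the genes tested. Among all tested mitosis members, called or not, the share was 60.8%. A gene with several promoters counted once, if any of them held the motif. The E2F site of S phase genes was searched as TTTGGCGC or TTTCGCGC on either strand. It was in 7 of 22 called S phase members (31.8%) and in 31.6% of the S phase members tested. Of all genes with a promoter, 0.929% held it, and of the genes tested, 1.96%. None of the motifs searched here contains another. A match is a description of the letters only. The stretches below were chosen after their values were seen, to show the element in members that were higher in skin, and read 5′ to 3′ on the gene's strand with the motif in capitals. They come from Mki67 (chr7:135716460-135716525, minus strand), Cdc20, the activator of the anaphase-promoting complex (1.37; chr4:118437344-118437391, minus strand), Prc1, which bundles the central spindle (1.59; the second listed start, chr7:80294416-80294475, plus strand), Kif22, a chromosome-binding kinesin (1.62; chr7:127042421-127042467, minus strand), Uhrf1 (the second listed start, chr17:56304098-56304165, plus strand) and Mcm5 (chr8:75109326-75109393, plus strand).
Mki67: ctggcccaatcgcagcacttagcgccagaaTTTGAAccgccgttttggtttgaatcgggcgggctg
Cdc20: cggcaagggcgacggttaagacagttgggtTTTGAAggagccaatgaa
Prc1: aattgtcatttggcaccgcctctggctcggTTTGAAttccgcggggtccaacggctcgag
Kif22: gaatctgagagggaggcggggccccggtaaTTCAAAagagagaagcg
Uhrf1: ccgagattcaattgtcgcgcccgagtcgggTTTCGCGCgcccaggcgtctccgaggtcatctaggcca
Mcm5: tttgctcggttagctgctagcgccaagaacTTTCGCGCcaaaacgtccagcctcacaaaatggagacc
The first 4 show the CHR, in Kif22 as its reverse complement, and Mki67 holds a further match in lower case in the same stretch. The last 2 show the E2F site, and in Mcm5 a match on the other strand begins inside the capitals.

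**Figure D2:**
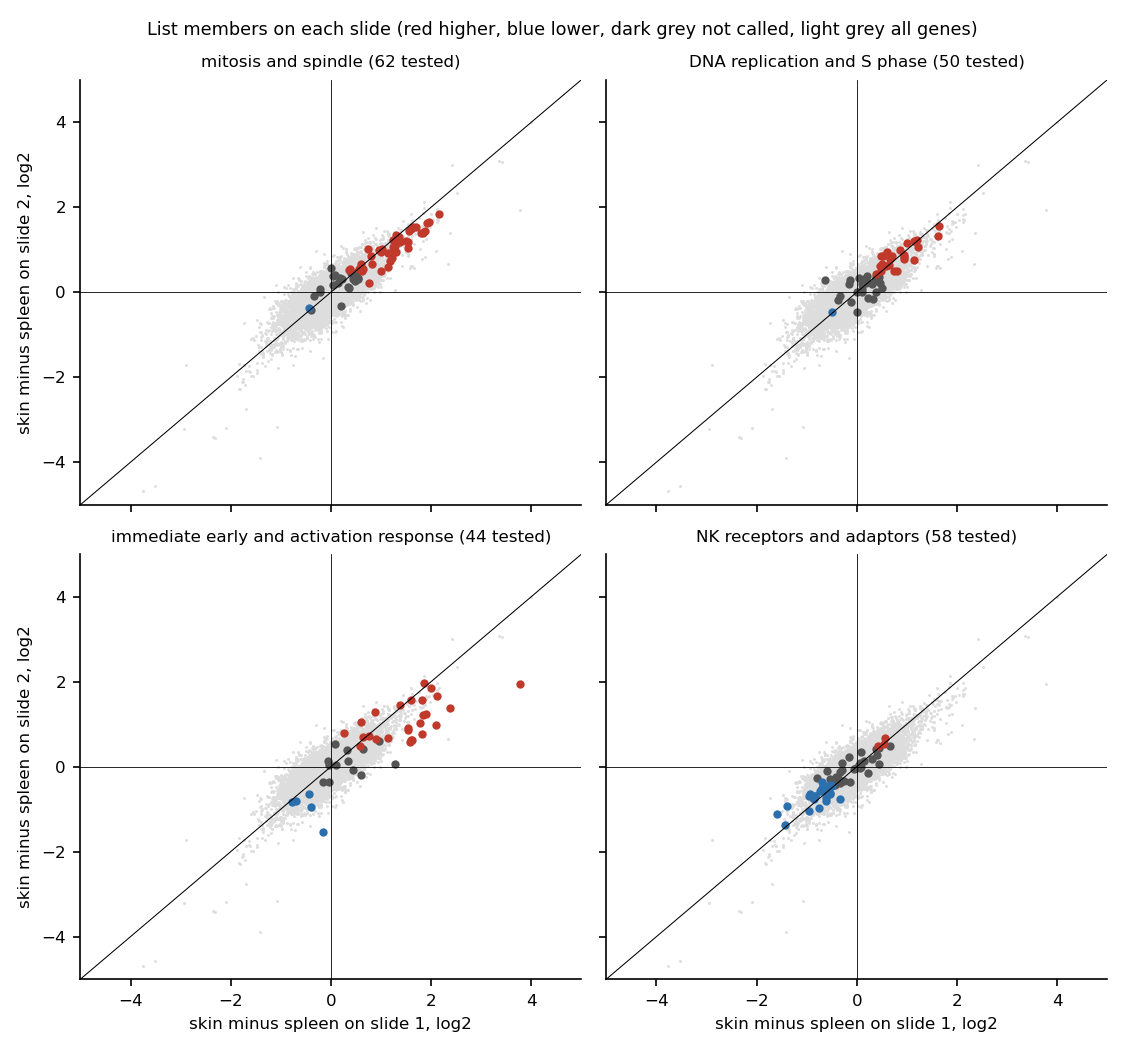
Each panel plots the skin minus spleen difference (log2) of slide 1 (x axis) against that of slide 2 (y axis) for the tested members of 1 list, over all genes in light grey; red members are called higher in skin, blue lower, dark grey not called, and the diagonal marks equal differences. Mitosis and S phase members lie up the diagonal, most early response members lie below it, and NK receptor members lie down it.

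Genes that supply a growing cell were also called higher more often than the 13.9% over all genes. In the list of glycolysis and hypoxia response, 15 of the 31 members tested were higher in skin (48.4%), 1 was lower (3.23%) and 15 were not called, and the median difference was 0.35. Gapdh gave 1778 and 1659 in spleen and 3879 and 3437 in skin (1.0 ± 0.13; its 4 other probes 1.06 to 1.16), and Eno1, the enolase gene, 307 and 267 in spleen and 492 and 511 in skin (1.01 ± 0.14). Both glycolytic enzymes were thus about 1 log2 unit higher. Ldha, lactate dehydrogenase, was higher by 0.79 ± 0.13 (lost without spleen replicate 2, adjusted p 0.0706). The 1 member called lower was Ddit4, an inhibitor of mTORC1 (-0.60 ± 0.16; lost without any 1 of the 4 arrays and with an offset of 4, no filter, adjusted p 0.0504 to 0.191). Without 1 array 3 to 9 members were called higher. For MYC targets and ribosome assembly in the nucleolus, 15 of the 34 members tested were higher in skin (44.1%), 1 was lower (2.94%) and 18 were not called, and the median difference was 0.24. Srm, the spermidine synthase, gave 53.8 and 39.1 in spleen and 91.2 and 88.7 in skin (1.02 ± 0.16; lost without spleen replicate 2, adjusted p 0.0569). Myc itself was not called (0.00, adjusted p = 0.992). The count of this list depended on the scaling, with 5 members called higher under median scaling, where its median was 0.04, and 0 to 7 without 1 array.

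Carriers and lipid genes had members on both sides. Slc7a5, the large neutral amino acid transporter, gave 34.5 and 32.7 in spleen and 88.8 and 95.02 in skin (1.34 ± 0.18, adjusted p = 0.00139), and Tfrc, the transferrin receptor, 60.4 and 59.9 in spleen and 117 and 118 in skin (1.07 ± 0.18). In their list of amino acid, glucose and iron transport, 7 of 25 members were higher (28.0%) and 3 lower (12.0%) (6 and 7 with median scaling, 3 to 4 and 1 to 3 without 1 array). Slc40a1, the iron exporter ferroportin that red pulp macrophages use, went the other way at 116 and 115 in spleen and -2.09 and -4.54 in skin. It was detected on neither skin array and was at least 4.74-fold lower there. In the cholesterol and fatty acid list, 8 of 26 members were higher (30.8%) and 3 lower (11.5%) (6 and 5 with median scaling, 1 to 6 and 0 to 1 without 1 array), among the first Cyp51, a sterol demethylase (0.93 ± 0.13), although its other probe gave -0.00.

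**Figure D3:**
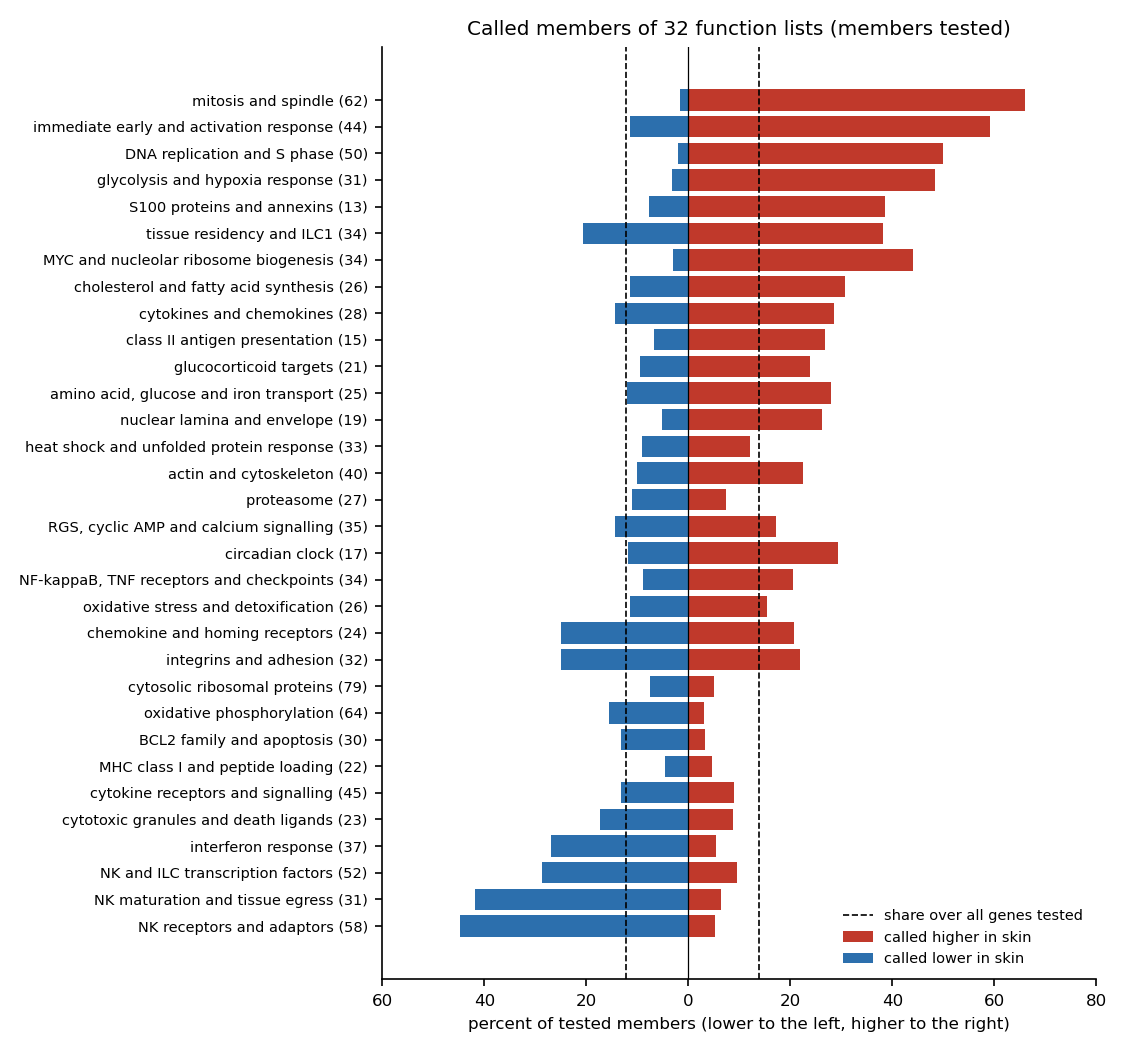
Bars give the percent of tested members of each of the 32 function lists that were called higher in skin (red, to the right) or lower (blue, to the left), with the number tested in brackets and dashed lines at the shares over all genes, 13.9% and 12.2%. Mitosis (66.1% higher) stands at the top and NK receptors (44.8% lower) at the bottom of the order by median difference.

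Immediate early and activation response genes, which cells switch on within minutes of a stimulus, were often higher in skin. In this list, 26 of the 44 members tested were higher in skin (59.1%), 5 were lower (11.4%) and 13 were not called, and the median difference was 0.79. Fosb, a partner in the AP-1 factor, gave 21.2 and 93.2 in spleen and 435 and 335 in skin and was higher by 2.86 ± 0.44 (adjusted p = 0.0029), although its other probe gave 0.26. The 2 spleen arrays were far apart for Fosb, replicate 2 being the higher. In the Fos, Jun and Atf3 family, whose proteins make up AP-1, 6 of the 7 genes tested were called, all higher, and the 7 differences ran from 0.53 to 2.86. Nr4a2, an orphan nuclear receptor, gave 322 and 438 in spleen and 1048 and 1567 in skin (1.92 ± 0.22; other probe 2.40). Ppp1r15a, which reverses the stress block of translation, gave 101 and 168 in spleen and 481 and 386 in skin (1.88 ± 0.24). Tnfaip3, the A20 inhibitor of NF-kappaB, gave 673 and 1123 in spleen and 2109.9 and 2168 in skin (1.40 ± 0.21). In each of these genes both skin arrays lay above both spleen arrays, and spleen replicate 2 lay above spleen replicate 1. Rgs16, which shortens G protein signals, was higher by 1.90 ± 0.17. Dusp1, a phosphatase of MAP kinases, was higher by 1.54 ± 0.28 (lost without spleen replicate 1 or skin replicate 1, adjusted p 0.0536 to 0.0588). The list's median was 0.90 on slide 1 and 0.65 on slide 2, and 11 to 19 members were called higher without 1 array. The other 5 called members were lower, the largest being Phlda1 (-0.85 ± 0.26; lost without spleen replicate 2 or skin replicate 1 or 2 and with an offset of 4, an offset of 64, no filter, adjusted p 0.0624 to 0.305) and Btg1, an antiproliferative gene (-0.79 ± 0.18; other probes -1.03 to 0.24; lost without any 1 of the 4 arrays and with an offset of 4, the mean of its probes, adjusted p 0.051 to 0.125). How much of the skin difference of these genes goes with the gap between the 2 spleen arrays was not tested.

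The cyclic AMP response element (CRE, TGACGTCA on either strand) is an element found in many inducible promoters. It was in 3 of the 21 early members called higher with a promoter (14.3%) and in 3 of the 35 tested (8.57%). The shares were 2.03% of all genes with a promoter, 3.58% of the genes tested and 3.52% of all genes called higher in skin. Of the genes searched for a stretch to show (Per1, Fosb, Nr4a2, Fos, Junb, Dusp1, Atf3 and Egr1), Dusp1 alone gave one. It is 1 of the 3 members (chr17:26508578-26508645, minus strand).
Dusp1: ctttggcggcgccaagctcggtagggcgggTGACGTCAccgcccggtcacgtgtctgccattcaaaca

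Per1, a repressor of the circadian clock that glucocorticoids and cyclic AMP also induce, was among the genes farthest from 0. It gave 10.8 and 31.3 in spleen and 259.6 and 328 in skin, a difference of 3.24 ± 0.21 (adjusted p = 6.6e-05), and its other probe gave 1.24. The rest of the clock did not follow it in one direction. Of 17 clock genes tested, 5 were higher (29.4%) and 2 lower (11.8%) (4 and 7 with median scaling, 1 to 4 and 0 to 1 without 1 array), with a median of 0.01 that was -0.27 with median scaling. Nr1d2, a REV-ERB repressor, was higher by 1.02 ± 0.17 (lost without spleen replicate 1, adjusted p 0.0607). Per3 was lower (-0.67 ± 0.18; lost without spleen replicate 1 or 2 or skin replicate 2 and with an offset of 4, adjusted p 0.0673 to 0.156), and so was Rora, the activator opposite REV-ERB (-0.75 ± 0.19; lost without spleen replicate 2 or skin replicate 1 or 2 and with an offset of 4, an offset of 64, adjusted p 0.0629 to 0.206). Per2 (-0.08, adjusted p = 0.664) and Dbp (-0.18, adjusted p = 0.351) were not called. Glucocorticoid targets were mixed as well, with 5 of 21 higher (23.8%) and 2 lower (9.52%) (4 and 6 with median scaling, 3 to 4 and 0 to 1 without 1 array). Tsc22d3, the glucocorticoid-induced leucine zipper, gave 87.6 and 89.8 in spleen and 300.3 and 256 in skin (1.76 ± 0.17; other probe 0.55), and Cebpb was higher by 1.15 ± 0.18, while Fkbp5 was not called (-0.06, adjusted p = 0.802).

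Lmna showed the largest difference toward skin of all genes tested. This gene of lamins A and C, the filaments that stiffen the nucleus, gave 86.8 and 80.8 in spleen and 1329.5 and 1289 in skin, a difference of 4.0 ± 0.20 (adjusted p = 9.32e-06), and its 3 other probes gave 2.96 to 3.18. Lmnb2, a B-type lamin, was higher by 1.01 ± 0.14 and Nrm, a nuclear envelope protein, by 1.09 ± 0.17, whereas Lmnb1 was not called (0.05, adjusted p = 0.893). Of the 19 lamina and envelope genes tested, 5 were higher (26.3%), 1 was lower (5.26%) and 13 were not called (3 and 4 with median scaling, 3 to 5 and 1 without 1 array). Others at the top of the order were Spp1, the secreted protein osteopontin, at 8.18 and 14.9 in spleen and 111 and 224 in skin (2.71 ± 0.26), and Rgcc, a cell cycle regulator, at 35.6 and 33.8 in spleen and 234 and 204 in skin (2.44 ± 0.36). Spp1 was bright on the skin arrays only, with skin replicate 2 the higher. Bbs9, part of the ciliary BBSome, was higher by 2.0 ± 0.14, and the uncharacterised E030034J16Rik by 3.22 ± 0.15.

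Signs of tissue residence were divided. In the list of residency and ILC1 genes, 13 of the 34 members tested were higher in skin (38.2%), 7 were lower (20.6%) and 14 were not called, and the median difference was 0.25 (10 and 9 with median scaling, 4 to 8 and 0 to 4 without 1 array). Cd69 gave 511 and 539 in spleen and 1866 and 1803 in skin (1.93 ± 0.20, adjusted p = 0.000555; other probes 0.23 to 1.22), with close replicates in both tissues. Gpr183, a receptor for oxysterols that guides lymphocytes within tissues, gave 19.99 and 28.2 in spleen and 126 and 137 in skin (2.05 ± 0.15). Litaf and Socs3, an inhibitor of cytokine signals, were higher by 1.67 ± 0.15 and 1.67 ± 0.23, and Ctla4, an inhibitory receptor, by 1.19 ± 0.20 (lost without spleen replicate 1, adjusted p 0.058). Ccr8, a chemokine receptor of skin lymphocytes, was detected on both skin arrays and on neither spleen array, at 0.943 and 1.75 against 18.8 and 11.7 (at least 1.44-fold higher; lost without spleen replicate 1 or 2 or skin replicate 1, adjusted p 0.0609 to 0.0885). The 7 lower members included Cxcr6, the receptor of liver-resident NK cells (-0.63 ± 0.14; lost without spleen replicate 1 or 2 or skin replicate 2, adjusted p 0.0591 to 0.131), and Il7r (-0.68 ± 0.19; other probes -0.94 to -0.23; lost without spleen replicate 1 or 2 or skin replicate 2 and with an offset of 4, no filter, adjusted p 0.0575 to 0.208). Itgae, the integrin chain CD103, by which lymphocytes hold to epithelial cadherin, gave 93.3 and 76.2 in spleen and 175 and 105 in skin, where the groups did not overlap but the spread was wide (0.86 ± 0.35, adjusted p = 0.0917; called with the 4 arrays alone, adjusted p 0.0188). Several members of this list, Cd69, Nr4a2 and Rgs1 among them, also belong to the early response list. With median scaling the list's median was 0.01.

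Many genes of mature, circulating NK cells were on the spleen side. In the maturation and egress list, 2 of the 31 members tested were higher in skin (6.45%), 13 were lower (41.9%) and 16 were not called, and the median difference was -0.34, beside 12.2% lower over all genes. S1pr5, a receptor for sphingosine-1-phosphate that NK cells use to leave tissues, gave 1052 and 1098 in spleen and 255 and 203 in skin (-2.05 ± 0.15, adjusted p = 0.00013). No skin value came near a spleen value. Itga4, the integrin chain that binds VCAM-1, gave 418 and 489 in spleen and 148 and 159.5 in skin (-1.28 ± 0.14), and its 3 other probes gave -1.08 to -0.59. Zeb2, a repressor needed for terminal NK maturation, gave 336 and 389 in spleen and 150.2 and 151 in skin (-0.97 ± 0.14; other probes -1.04 to -0.99). Klf3, a Krüppel-like factor, was lower too (-1.22 ± 0.15), and so was Kcnj8, a potassium channel (-1.66 ± 0.18). The homing molecules Itgb2 (-0.89 ± 0.15; lost without spleen replicate 1, adjusted p 0.0588) and Cx3cr1 (-0.89 ± 0.19; lost without spleen replicate 1 or 2 or skin replicate 2 and with an offset of 4, adjusted p 0.0595 to 0.0934) were lower too. Cma1, a chymase gene that this list holds for NK cells and that mast cells express, gave 798 and 691 in spleen and 200.04 and 134 in skin (-1.94 ± 0.20). In the mast cell and basophil list, 1 of 3 tested members was higher, the tryptase gene Tpsb2 (at least 1.29-fold; lost without spleen replicate 1 or 2 or skin replicate 1 and with an offset of 64, no filter, adjusted p 0.0524 to 0.158), and 2 were lower, Cma1 and Kit, while Cpa3 and Mcpt4 were detected on no skin or spleen array. Klrg1, an inhibitory lectin-like receptor gained late by NK cells, was not called (-0.25 ± 0.13, adjusted p = 0.175; called with median scaling or deposited scaling, adjusted p 0.0208 to 0.0425), nor was Klf2, which drives S1P receptor genes (-0.16 ± 0.18, adjusted p = 0.548). Cd27, switched off at the last step of maturation, was higher by 0.62 ± 0.14 (lost without spleen replicate 1 or 2 or skin replicate 1 and with median scaling, deposited scaling, adjusted p 0.0632 to 0.152). Without 1 array 7 to 11 members were called lower.

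**Figure D4:**
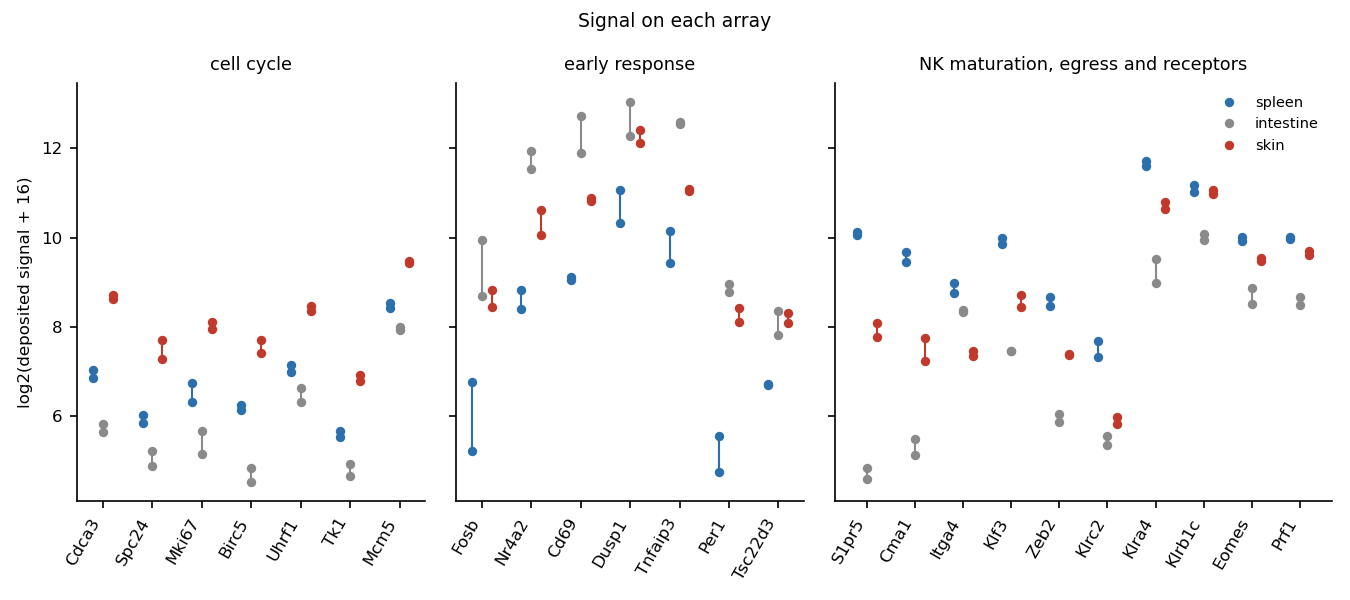
Points give log2(deposited signal + 16) on each array for named genes in spleen (blue), intestine (grey) and skin (red), with the 2 arrays of a tissue joined by a line. The cell cycle genes shown are highest in skin, the early response genes shown are lowest in spleen, and S1pr5, Cma1 and Zeb2 are highest in spleen, lower in skin and lowest in intestine.

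NK receptors and their adaptors had the highest share of lower members among the function lists. In this list, 3 of the 58 members tested were higher in skin (5.17%), 26 were lower (44.8%) and 29 were not called, and the median difference was -0.39. Of the 14 Ly49 genes tested, the Klra family of receptors for MHC class I, 8 were called lower and 0 higher, and all 14 differences lay between -1.0 and -0.10. These genes are near-identical copies, so their probes may share signal and the count is uncertain. Klra4 gave 3104 and 3371 in spleen and 1581 and 1772 in skin (-1.0 ± 0.17; lost without spleen replicate 2, adjusted p 0.0682). Klrc2, the activating NKG2C chain, gave 189.8 and 145 in spleen and 40.8 and 46.8 in skin (-1.35 ± 0.16, adjusted p = 0.000919), and its inhibitory relative Klrc1 (NKG2A) 210.4 and 119 in spleen and 54.6 and 43.8 in skin (-1.17 ± 0.25; lost without spleen replicate 1 or skin replicate 2 and with an offset of 4, adjusted p 0.0504 to 0.113). The groups did not overlap for either. Fyn, a Src family kinase below these receptors, was lower (-1.41 ± 0.14), while its other probe gave -0.30. The activating receptor gene Klrk1 (NKG2D) was lower (-0.54 ± 0.15; lost without any 1 of the 4 arrays and with an offset of 4, no filter, the mean of its probes, adjusted p 0.052 to 0.241). The 3 members called higher were Ptpn6, the SHP-1 phosphatase (0.62 ± 0.18; lost without any 1 of the 4 arrays and with median scaling, deposited scaling, an offset of 4, no filter, adjusted p 0.0656 to 0.179), Cd2 (0.54 ± 0.14; lost without any 1 of the 4 arrays and with an offset of 4, no filter, adjusted p 0.0531 to 0.183) and Sh2d1a (0.46 ± 0.13; lost without any 1 of the 4 arrays and with median scaling, deposited scaling, an offset of 4, no filter, adjusted p 0.0685 to 0.294). With an offset of 4, 16 members were called lower in place of 26, with no detection filter 17, and without 1 array 3 to 15.

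Genes of killing were called at shares not far from those over all genes, 13.9% higher and 12.2% lower. A larger share of the genes of secreted factors was higher. Of 23 tested genes of cytotoxic granules and death ligands, 2 were higher (8.70%) and 4 lower (17.4%) (1 and 9 with median scaling, 0 to 1 and 0 to 4 without 1 array). Gzmm, a granzyme, gave 178 and 157 in spleen and 73.5 and 66.7 in skin (-0.83 ± 0.14; lost without spleen replicate 1, adjusted p 0.0671), and Ctsc, the protease that activates granzymes, was lower (-0.80 ± 0.15; lost without spleen replicate 1 or 2, adjusted p 0.0668 to 0.0824). Gzma was near background at 17.4 and 13.2 against 2.24 and 9.18 (-0.54 ± 0.17; lost without spleen replicate 1 or 2 or skin replicate 1 and with an offset of 4, an offset of 64, no filter, adjusted p 0.0841 to 0.238). Among cytokine genes 8 of 28 were higher (28.6%) and 4 lower (14.3%) (6 and 4 with median scaling, 3 to 5 and 0 to 2 without 1 array). Ccl4, a chemokine that NK cells release on activation, gave 7136 and 7112 in spleen and 19444 and 16966 in skin (0.91 ± 0.15; lost without spleen replicate 2, adjusted p 0.0586), and Osm, oncostatin M, was higher by 0.91 ± 0.14. Ifng, the interferon gamma gene, gave 960.5 and 1471 in spleen and 2036 and 1886 in skin, with the spleen replicates apart (0.77 ± 0.22; lost without spleen replicate 1 or skin replicate 1 or 2 and with an offset of 4, no filter, adjusted p 0.0561 to 0.257). The list of interferon response genes lay on the other side. Of 37 tested, 2 were higher (5.41%) and 10 lower (27.0%) (3 and 20 with median scaling, 0 to 2 and 1 to 8 without 1 array), and the median was -0.16. Irf1 was lower (-0.73 ± 0.16; other probes -1.31 to -1.05; lost without spleen replicate 1 or 2 or skin replicate 2, adjusted p 0.0604 to 0.101), and so was Rsad2, an antiviral enzyme (-1.03 ± 0.25; lost without spleen replicate 2 or skin replicate 1 and with an offset of 4, adjusted p 0.0672 to 0.161). Bst2, which tethers virions, was higher by 0.80 ± 0.14 (lost without spleen replicate 1 or 2, adjusted p 0.0516 to 0.0706).

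Transcription factors of NK cells and ILCs leaned to the spleen side. Of 52 tested, 5 were higher in skin (9.62%) and 15 lower (28.8%) (3 and 25 with median scaling, 0 to 3 and 4 to 9 without 1 array). Id2, the inhibitor of E proteins that all ILC lineages need, gave 2909.8 and 2669.9 in spleen and 1342 and 1538 in skin (-0.95 ± 0.13; other probe -0.44). Lef1 was lower (-1.10 ± 0.17), though its other probes ran from -0.80 to 0.34. Prdm1, the gene of Blimp-1, was detected on neither skin array and at least 1.22-fold lower (lost without spleen replicate 1 or 2, adjusted p 0.0717 to 0.085). Myb, a factor of immature and cycling blood cells, was higher, at 12.7 and 11.9 against 29.97 and 50.3 (1.02 ± 0.17; lost without spleen replicate 1 or 2, adjusted p 0.0508 to 0.0541), and Ahr, the receptor for aryl hydrocarbons, by 0.61 ± 0.14 (lost without spleen replicate 1 or 2 or skin replicate 1, adjusted p 0.0737 to 0.117). Gata3 was not called (-0.23 ± 0.19, adjusted p = 0.363). Cytokine receptors and their signalling genes had 4 of 45 higher (8.89%) and 6 lower (13.3%) (2 and 18 with median scaling, 2 and 1 to 4 without 1 array), and 0 of the 6 STAT genes tested called. Kit, the stem cell factor receptor, gave 282 and 291 in spleen and 115 and 107 in skin (-1.02 ± 0.13; other probe -0.77). Socs2, a feedback inhibitor of JAK and STAT signals, gave 281 and 324 in spleen and 1086 and 1034 in skin (1.97 ± 0.14), but its other probe gave 0.16. The TGF-beta receptor gene Tgfbr2 (-0.21 ± 0.16, adjusted p = 0.341; called with median scaling, adjusted p 0.0296) and Il2rb, which receives interleukins 2 and 15 (0.48 ± 0.20, adjusted p = 0.0983; called with the 4 arrays alone or the replicate block, adjusted p 0.0328 to 0.0409), were not called.

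Adhesion and motility genes changed in both directions. Integrins and adhesion molecules had 7 of 32 higher (21.9%) and 8 lower (25%) (4 and 10 with median scaling, 2 to 4 and 2 to 6 without 1 array). Lgals3, galectin-3, gave 417 and 498 in spleen and 1369 and 1462 in skin (1.79 ± 0.21), and Tln1, the talin that activates integrins, was higher by 0.90 ± 0.14. On the other side were Mcam (-1.24 ± 0.18) and the tetraspanin Cd9 (-1.25 ± 0.27; lost without spleen replicate 1 or skin replicate 2 and with an offset of 4, adjusted p 0.0524 to 0.105). Of 13 S100 and annexin genes, 5 were higher (38.5%) and 1 lower (7.69%) (4 and 2 with median scaling, 1 to 4 and 0 without 1 array). S100a4, a calcium-binding protein of motile cells, gave 209.98 and 260.3 in spleen and 726 and 657 in skin (1.75 ± 0.16), and S100a6 3636 and 3589 in spleen and 8820.3 and 8646 in skin (1.12 ± 0.21; lost without spleen replicate 1 or 2, adjusted p 0.0621 to 0.0624). In the actin and cytoskeleton list 9 of 40 were higher (22.5%) and 4 lower (10%) (7 and 5 with median scaling, 4 to 5 and 0 without 1 array). Capg, which caps actin filaments, gave 116 and 126 in spleen and 453 and 379.6 in skin (1.92 ± 0.18), Tubb6 was higher by 1.56 ± 0.17 and Tagln2 by 1.0 ± 0.14, while Actb was not called (0.09, adjusted p = 0.686).

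Thy1, the Thy-1 antigen of mouse lymphocytes and of fibroblasts, gave 1029.8 and 1019 in spleen and 3729.6 and 3676 in skin (1.86 ± 0.13, adjusted p = 9.07e-05). The fibroblast list that holds it summed to 3931 and 3843 on the skin arrays against 1128 and 1097 on the spleen arrays, most of it Thy1. Col1a1 and Col1a2, the collagen chains that define fibroblasts, were detected on no skin or spleen array. Dcn, decorin, was detected on both skin arrays and neither spleen array, at -0.443 and -3.49 against 34.2 and 17.1 (at least 1.98-fold higher; lost without any 1 of the 4 arrays and with an offset of 4, an offset of 64, no filter, the mean of its probes, adjusted p 0.0627 to 0.231). Of the 40 keratinocyte genes listed, 11 were tested. Of these, 4 were called higher (36.4%, beside 13.9% over all genes), by 0.43 to 0.67, and 0 lower. Without 1 array, 0 to 2 were called higher. Of the 40 genes, 9 were detected on both skin arrays and 11 on both spleen arrays. The list summed to 536 and 504 in skin against 348 and 359 in spleen. Krt5 and Krt14, the basal keratins, were detected on no array of either tissue, and Krt10, a keratin of the upper layers, on the spleen arrays only, at 8.1 and 8.48 against 6.19 and 1.8.

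The other marker lists rested on few genes. T cell genes had 2 of 9 tested members higher (22.2%) and 1 lower (11.1%), and ILC2 genes 0 of 3 called in either direction. Neutrophil genes had 2 of 3 lower (66.7%), Camp and Mmp9, and B and plasma cell genes 2 of 6 lower (33.3%), Cd22 and Cd79b. The calls of Camp, Mmp9, Cd22 and Cd79b were all lost with an offset of 64. Among genes of ILC3, the NKp46+ group of which shares the sorted receptor with NK cells, 3 of 7 were lower (42.9%), all of them, Kit, Ltb and Il7r, also carried by other lymphocytes. Il22 and Il23r, which define ILC3, were detected on no skin or spleen array, and nor were the B cell gene Cd79a or the Langerhans cell gene Cd207. Endothelial genes had 1 of 5 tested members higher. Of the genes that define endothelium, Cdh5 was undetected and Pecam1, which leukocytes also carry, gave 222 and 219 in spleen and 178 and 216 in skin and was not called (adjusted p = 0.719). What part these cells had in the results was not tested.

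Chaperone and redox genes brought a pair of strong differences to the spleen side. Hspa1a, an inducible Hsp70 gene, gave 109 and 286 in spleen and 23.6 and 1.92 in skin (-2.66 ± 0.43, adjusted p = 0.00395). Hspa1b, its near-identical copy, gave 89.7 and 167 in spleen and 5.96 and 1.18 in skin and, detected on neither skin array, was at least 5.01-fold lower. Signal may be shared between these 2 genes, and spleen replicate 2 was the higher for both. The whole list, these 2 included, had 4 of 33 higher (12.1%), 3 lower (9.09%) (3 and 9 with median scaling, 1 and 2 without 1 array) and a median of 0.11, which was -0.20 with median scaling. Prdx4, a peroxiredoxin of the secretory pathway, was higher by 1.18 ± 0.13, and Hmox1, which breaks down heme, was at least 2.16-fold lower.

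Markers of blood and phagocytes differed along with these genes. The erythroid and platelet list summed to 13260 and 19120 on the spleen arrays and to 2108 and 1875 on the skin arrays, with 8 of its 15 tested members lower in skin (53.3%) and 0 higher. Hbb-b1, a globin gene, gave 7318 and 10873 in spleen and 628 and 494 in skin (-4.22 ± 0.23), and Alas2, the heme enzyme of red cell precursors, 185 and 310.1 in spleen and 19.3 and 11.3 in skin (-2.87 ± 0.24). The list of macrophage, monocyte and dendritic cell genes summed to 1049 and 1038 in spleen and 527 and 503 in skin. Of its 18 tested members, 13 were lower (72.2%, beside 12.2% over all genes) and 2 higher (11.1%, beside 13.9%). However, 13 of the 18 were undetected on both arrays of 1 tissue and passed the filter through the other alone. For those the direction was largely set by the filter, so the count is no separate result. With bounds in place of their differences, the list's median was -0.43 against -0.87. Vcam1, carried by red pulp macrophages, gave 74.1 and 80.97 in spleen and 6.53 and 1.08 in skin (at least 3.34-fold lower), and Fcgr2b, the inhibitory Fc receptor, 259.7 and 266 in spleen and 47.5 and 45.9 in skin (-1.91 ± 0.15). Slc40a1 and Hmox1, above, are also expressed by those macrophages. Csf1r, a receptor that defines macrophages, was detected on no skin or spleen array. Adgre1, the F4/80 antigen, and C1qa, a complement component, were detected on the spleen arrays only, Adgre1 at 13.7 and 13.5 against -0.997 and 2.64 and C1qa at 11.6 and 10.8 against -0.915 and -0.202, and were at least 1.22-fold (lost without spleen replicate 1 or 2 or skin replicate 1, adjusted p 0.0538 to 0.0722) and 1.15-fold (lost without spleen replicate 1 or 2, adjusted p 0.0513 to 0.0532) lower in skin. In sorted bulk samples, fewer cells of a type and less RNA per cell cannot be told apart, and what part these cells had in the lower side of the comparison was not tested.

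**Figure D5:**
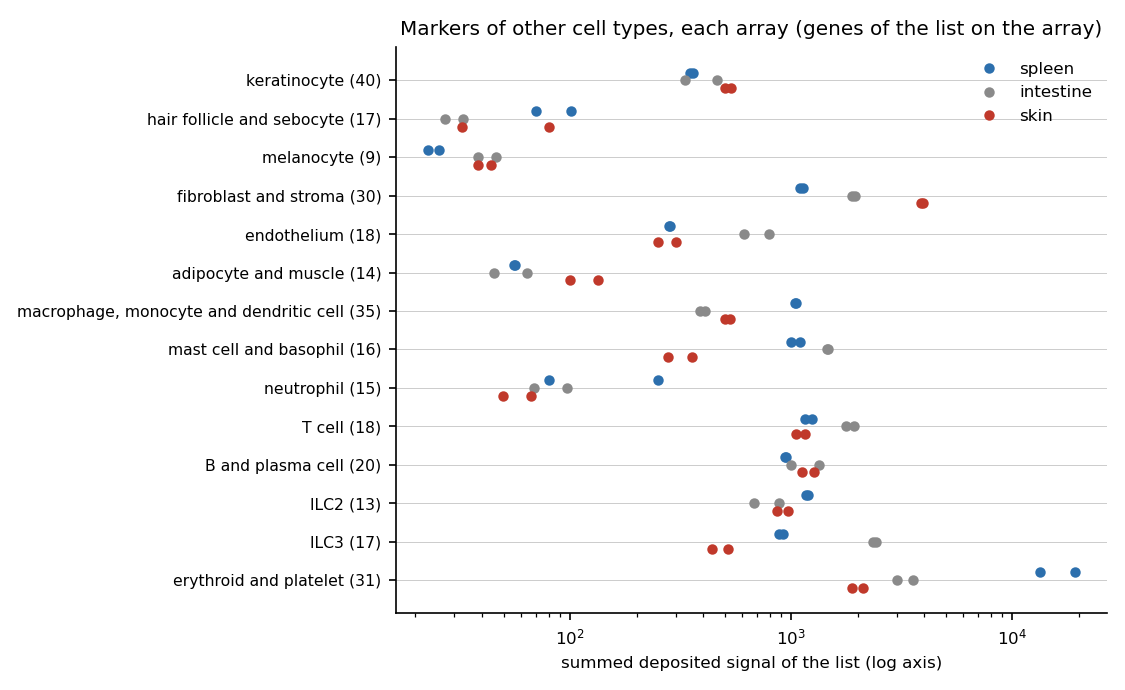
Points give the summed deposited signal of each marker list on each array (x axis, log scale) in spleen (blue), intestine (grey) and skin (red), with the number of genes on the array in brackets. The erythroid sum is 13260 and 19120 in spleen against 2108 and 1875 in skin, and the fibroblast sum, mostly Thy1, is highest in skin.

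Signalling genes were split. In the list of NF-kappaB, TNF receptors and checkpoints, 7 of 34 were higher (20.6%) and 3 lower (8.82%) (4 and 10 with median scaling, 2 to 6 and 1 to 4 without 1 array). Tnfrsf25, the receptor DR3, gave 67.4 and 91.1 in spleen and 19.6 and 19.3 in skin (-1.18 ± 0.16), against Tnfrsf9, the costimulatory receptor 4-1BB, at 63.99 and 46.04 in spleen and 88.8 and 96.3 in skin (0.88 ± 0.16; other probe -0.29; lost without spleen replicate 2 and with the mean of its probes, adjusted p 0.0796 to 0.168). The list of RGS, cyclic AMP and calcium signalling had 6 of 35 higher (17.1%) and 5 lower (14.3%) (3 and 11 with median scaling, 1 to 3 and 1 to 4 without 1 array), with Pde4b, a phosphodiesterase that breaks down cyclic AMP, among the lower (-1.09 ± 0.15; lost with the mean of its probes, adjusted p 0.744), although its other probe gave 0.94. Chemokine and homing receptors had 5 of 24 higher (20.8%) and 6 lower (25%) (2 and 11 with median scaling, 1 to 2 and 1 to 4 without 1 array), among the latter Gpr18, a receptor of mature NK cells (-0.86 ± 0.15; lost without spleen replicate 1, adjusted p 0.0651). Of 15 class II antigen presentation genes, 4 were higher (26.7%) and 1 was lower (6.67%) (0 and 2 with median scaling, 0 to 1 and 0 without 1 array), each by less than 1 log2 unit. In the BCL2 family and apoptosis list 1 of 30 was higher (3.33%) and 4 were lower (13.3%) (1 and 14 with median scaling, 0 and 0 to 2 without 1 array), among them Bcl2l11, the death inducer BIM (-0.70 ± 0.13; other probes 0.15; lost without spleen replicate 1 or 2 and with the mean of its probes, adjusted p 0.0743 to 0.178).

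Housekeeping machinery gave few calls. Cytosolic ribosomal proteins had 4 of 79 higher (5.06%) and 6 lower (7.59%) (13 and 5 with median scaling, 0 to 1 and 0 to 1 without 1 array). The proteasome had 2 of 27 higher (7.41%) and 3 lower (11.1%) (0 and 8 with median scaling, 0 and 0 without 1 array), and MHC class I and peptide loading 1 of 22 each way (4.55%) (3 and 3 with median scaling, 0 and 0 without 1 array). Oxidative phosphorylation had 2 of 64 higher (3.12%) and 10 lower (15.6%) (2 and 25 with median scaling, 0 to 1 and 0 to 7 without 1 array), with Uqcrh of complex III at -0.87 ± 0.15 (lost without spleen replicate 1 or 2, adjusted p 0.0584 to 0.0641).

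The intestine arrays place these differences beside another tissue, with the skin arrays shared by both comparisons, so that the 2 sets of values are not independent. Genes were kept by detection in skin or spleen, whatever their detection in intestine, so genes detected in intestine alone were left out. What part this had in the counts was not tested. Against intestine, 3109 genes (23.7%) were higher in skin and 2002 (15.3%) lower. Of the mitosis members, 51 of 62 were higher in skin than in intestine and 2 lower, and of the S phase members 36 of 50 and 1. Mki67 gave 34.6 and 19.4 on the intestine arrays (skin minus intestine 2.51 ± 0.21). Early response genes ran the other way, 3 of 44 being higher and 31 lower than in intestine, as with Nr4a2 at 3911 and 2953 (-1.35 ± 0.22) and Cd69 at 6791 and 3794 (-1.32 ± 0.20). For maturation and egress, 23 of 31 were higher than in intestine and 6 lower, and S1pr5 gave 8.22 and 12.6 (3.19 ± 0.15). Of the NK receptors, 32 of 58 were higher and 9 lower. Heat shock and unfolded protein genes had 0 of 33 higher and 25 lower. S100a4 gave 26.1 and 34.7 (3.79 ± 0.16) while Lmna, at 1468 and 834, was not called against intestine (0.26 ± 0.20, adjusted p = 0.327).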

How the data were processed

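RNA of 6 sorted cell samples, 2 per tissue, was hybridised to Illumina mouse BeadChips after column purification and amplification with biotin labelling, per the labels' protocols. The deposited tables give the authors' signal intensity per probe with a detection p-value, exported with BeadStudio 1.5.1.3 per the submitters' processing notes. The deposited intensity was already background-subtracted and scaled to a common array mean, steps that the sources used here do not describe; a further deposited value table holds unscaled values and served as an alternative.

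Here log2(signal + 16) was quantile normalized over 6 arrays. Probes were kept with detection p under 0.01 on both arrays of skin or of spleen (17711 with a symbol), and the probe with the highest mean represented each of 13115 genes. Limma 3.58.1 in R 4.3.3 fitted a mean per tissue over all 6 arrays (3 residual degrees of freedom), with moderated tests and Benjamini-Hochberg adjustment; the fit was tested on simulated data. The number of arrays limits the precision. Symbols of 20147 probes were current, 12966 were updated through RefSeq synonyms, 11604 were kept as in the file, 199 were ambiguous and 1727 probes had none.

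A gene undetected on every array of a tissue has a lower bound as its fold: the other tissue's mean against, per array, the lowest detected signal (its own signal where that was higher). Named genes were the 10 largest changes each way, up to 5 called members each way of each function list (2 where none was called), up to 4 of each marker list, and a set of fixed genes; other genes were chosen after their values were seen, as were those with promoters shown, Myc, Per2, Dbp, Fkbp5, Lmnb1 and Actb. A gene could enter the 10 largest changes only if the brighter tissue showed it on each array. Its skin and spleen values also had to lie apart, without overlap. For those genes the lack of overlap was therefore fixed by the choice and is no separate result. For list members named because they were called, it mostly follows from the call and is no separate result either. The comparison and its lists were chosen with earlier results of these data known. Replicate number coincides with slide; replicate differences of tissue pairs correlated at 0.201 (spleen and skin), 0.155 (spleen and intestine) and 0.115 (intestine and skin), with 2 numbers only, so the replicate block was an alternative. Further alternatives were other scalings, the unscaled values, offsets of 4 and 64, other filters, other rules for probes, a trended prior, a fit to the 4 arrays alone, and leaving out each array. Some genes of the lists are not reported here.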

Additional observations from a re-analysis of the deposited data

How the results depend on the processing

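No called value of the 252 named genes changed sign under any alternative run for it, and 212 of the 252 could be run with detection on all 4 arrays required. Against 3416 called genes, 5232 were called with the arrays set to a common median, 2257 with an offset of 4, and 1834 with no detection filter. Genes called lower numbered 3871 with median scaling, 3064 with the deposited scaling alone, 985 with an offset of 4 and 893 with no filter, against 1594, and genes called higher numbered 941 with no filter, against 1822. Leaving out 1 array, which leaves a tissue with 1 sample assumed to vary like the others, gave 464 to 2070 calls, of which 246 to 1131 were higher and 218 to 939 lower. Members called without 1 array numbered 8 to 17 for higher S phase genes (25 with all arrays), 22 to 34 for mitosis (41), 11 to 19 for early response (26), 3 to 9 for glycolysis (15), 7 to 11 for lower maturation genes (13) and 3 to 15 for lower NK receptor genes (26). S phase members called higher were 16 with median scaling and 16 with an offset of 4, and NK receptor members called lower were 16 with an offset of 4 and 17 with no filter. With the replicate block, 4108 genes were called (2188 higher and 1920 lower), including all 3416, and no named call was lost, while Ncr1 and Il2rb gained one (adjusted p 0.0402 and 0.0409). The offset moves calls of dim genes most by construction. Median and deposited scaling shifted the median of all genes to -0.20 and -0.13, so lists near 0 changed side: with median scaling the median moved from 0.01 to -0.27 for the circadian clock, from 0.13 to -0.18 for glucocorticoid targets and from 0.12 to -0.12 for the nuclear lamina. Signals near the detection limit carry only a bound.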

Other observations

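Histone genes, whose synthesis is tied to S phase, were looked at after their values were seen. Of 50 tested, 29 were called higher in skin and 1 lower, beside 13.9% higher and 12.2% lower over all genes tested. The median difference was 0.67. How these counts move with the processing was not tested. The families were unlike each other: 12 of 15 H2A genes, 9 of 14 H2B genes and 7 of 7 H3 genes were higher, with medians of 1.08, 0.72 and 0.84, while 0 of 11 H4 genes were called by limma and their median was -0.21. Histone genes are near-identical copies, so probes may share signal and the counts are uncertain.

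Of 7 mitochondrial transcripts on the array that were tested, mt-Nd5 was the 1 called higher, at 51.3 and 25.8 in spleen and 152 and 117 in skin (1.73 ± 0.23). It stayed called under every alternative run. The dim mt-Nd4l and mt-Nd6 were detected on neither skin array and were at least 1.51-fold and 1.23-fold lower. The call of mt-Nd4l was lost without spleen replicate 1 (adjusted p 0.0797), and that of mt-Nd6 without any 1 of the 4 arrays, with an offset of 64 and with no filter (adjusted p 0.0657 to 0.192). The bright mt-Co2, mt-Cytb, mt-Nd1 and mt-Nd4 were not called, with differences from -0.14 to 0.14. By limma, mt-Cytb was called higher with median scaling (0.48, adjusted p 0.0208) and with deposited scaling (0.55, adjusted p 0.0147).

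Probes of 1 gene could disagree. Of the 76 named called genes with several probes, 29 had a probe of the other sign or with under 25% of the reported difference. For Pde4b one probe gave -1.09 and the other 0.94.

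Spleen replicate 2 alone carried signal of S100a8 and S100a9, calgranulin genes of neutrophils. S100a8 gave 2.92 and 81.1 in spleen and -0.651 and 0.316 in skin, and S100a9 -0.114 and 37.4 in spleen and -1.16 and -0.544 in skin.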
